A study of Bos taurus with 60 samples.

Results

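bta-miR-103 and bta-miR-107 are 2 closely related bovine miRNAs, and their read counts were followed here in the liver of 60 beef steers. They were taken as the rows of the deposited counts that carry exactly these mature names, 2 of the 1030 known mature miRNAs listed, and both had reads in all 60 steers. The steers comprised 20 purebred Angus, 20 purebred Charolais and 20 of the Kinsella Composite (KC), a crossbred population. In each breed 6 steers are labelled low-RFI and 6 high-RFI, and the other 8 carry no RFI group. RFI (residual feed intake) is the feed an animal eats beyond what its size and growth predict, so low-RFI steers are the more feed-efficient ones. All 60 steers received 1 finishing diet of barley grain, barley silage and rumensin pellets, and no steer received a treatment or carried a genetic change. Per the study's methods, liver was taken at slaughter once a target back-fat depth was reached, and the mean age at slaughter differed between the breeds. A breed difference therefore cannot be told apart from a difference in age. Many steers shared a labelled sire and are then half-sibs.

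A miRNA pairs with target mRNAs mainly through its seed, bases 2 to 8 from the 5′ end, and lowers their translation or stability. In mammals miR-103 and miR-107 are produced from introns of the pantothenate kinase genes, whose enzymes start coenzyme A synthesis. In mice they are known as regulators of insulin sensitivity that act in liver and fat, with caveolin-1, a membrane protein linked to the insulin receptor, as a described target. The comparison of low-RFI with high-RFI steers asks whether the amount of these miRNAs in liver goes with feed efficiency.

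Both mature sequences are shown because they explain how far the counts can separate the members. They are given 5′ to 3′ as the study lists known bovine miRNAs, with the seed in capitals, followed by 4 miRNAs whose seed holds AGCAGC. In those 4 this run starts at base 2, and in the members at base 1, before the seed.
bta-miR-103: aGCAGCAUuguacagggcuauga
bta-miR-107: aGCAGCAUuguacagggcuauc
bta-miR-15a: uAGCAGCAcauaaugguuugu
bta-miR-16a: uAGCAGCAcguaaauauuggug
bta-miR-195: uAGCAGCAcagaaauauuggca
bta-miR-497: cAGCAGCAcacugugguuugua

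The first 21 bases of bta-miR-103 and bta-miR-107 are identical. bta-miR-103 is 23 bases long and bta-miR-107 is 22 bases long, so they differ only in the last 2 bases of the one and the last 1 base of the other. Among the 588 mature sequences listed, these 2 alone hold the seed GCAGCAU. Of the same sequences, 9 (1.53%) hold AGCAGC starting at base 1 or 2. Reads of 15 to 28 bases were kept by the authors, so a read that ends at base 21 or before cannot be assigned to 1 member, and how such reads were split is not given in the sources used here. The part of such reads in the values was not tested.

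bta-miR-103 is produced from 2 precursors and bta-miR-107 from 1. In RefSeq's cattle annotation (assembly ARS-UCD2.0, used for names only), MIR103-1 lies within PANK3, MIR103-2 within PANK2 and MIR107 within PANK1. The counts do not separate the precursors of bta-miR-103. In every steer the row of the second precursor exceeded that of the first, but by only 3 to 30 reads, which is 0.0594% to 0.329% of the count. Their mean was therefore taken as the level of bta-miR-103, which counts each shared read once.

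The total of averaged counts per steer ranged from 1930859 to 6759381, and KC steers were the deepest with a median of 5547018, against 3720336 in Angus and 4405876 in Charolais. Levels are given as CPM, the count scaled to a common library total, after TMM scaling, which corrects that total for a few dominant miRNAs. Levels therefore compare 1 miRNA between steers, and the mature lengths are so similar that they were not divided by length. The 60 libraries all differed from each other. Of the libraries that stood apart, Angus steer 3 and Charolais steer 7 among those with no RFI group had TMM factors of 0.671 and 0.685, and all the others lay between 0.795 and 1.17. The labelled tissue was checked with the hepatocyte list (bta-miR-122, bta-miR-192 and bta-miR-885), whose summed level ran from 173171 to 355839 CPM, against 109 to 354 CPM for the 5 biliary epithelial and 13830 to 20820 CPM for the 2 endothelial miRNAs. The 5 mesenchymal miRNAs summed to 116116 to 376970 CPM, as high as the hepatocyte list. Such sums can rest on 1 miRNA and do not measure shares of cell types. bta-miR-143 of the mesenchymal list alone had a mean of 171860 CPM, and bta-miR-122 of the hepatocyte list one of 8136 CPM.

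Both miRNAs were abundant in every liver. bta-miR-103 had a level of 1705 ± 150 CPM (SD, n = 60 steers), with a lowest steer at 1490, a median of 1692 and a highest at 2141 CPM. It ranked between place 32 and place 42 of the 1030 miRNAs by count in any steer. bta-miR-107 had a level of 620 ± 52.2 CPM (SD, n = 60), with a lowest steer at 514, a median of 613 and a highest at 749 CPM, and ranked between place 52 and place 63. Behind these levels stood 3208 to 11174 reads of bta-miR-103 and 1257 to 4124 reads of bta-miR-107 per steer.

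The steers differed little. The SD of log2 CPM around the breed mean was 0.12 for bta-miR-103 and 0.11 for bta-miR-107, against a median of 0.45 over the 443 miRNAs tested across the 60 steers. By this measure bta-miR-107 had the 2nd and bta-miR-103 the 5th lowest spread, both over all 443 and over the 62 miRNAs with a mean of at least 500 CPM, whose median SD was 0.20. The spread still exceeded counting error. In Angus the coefficient of variation of bta-miR-107 was 7.72%, where read counts alone give 2.13%, and in KC it was 8.40% against 1.80%. For bta-miR-103 the observed values were 7.37% to 9.71% in the 3 breeds and those from counting 1.07% to 1.30%. PCR copies can repeat a molecule, so the values from counting cover counting error only.

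**Figure D1:**
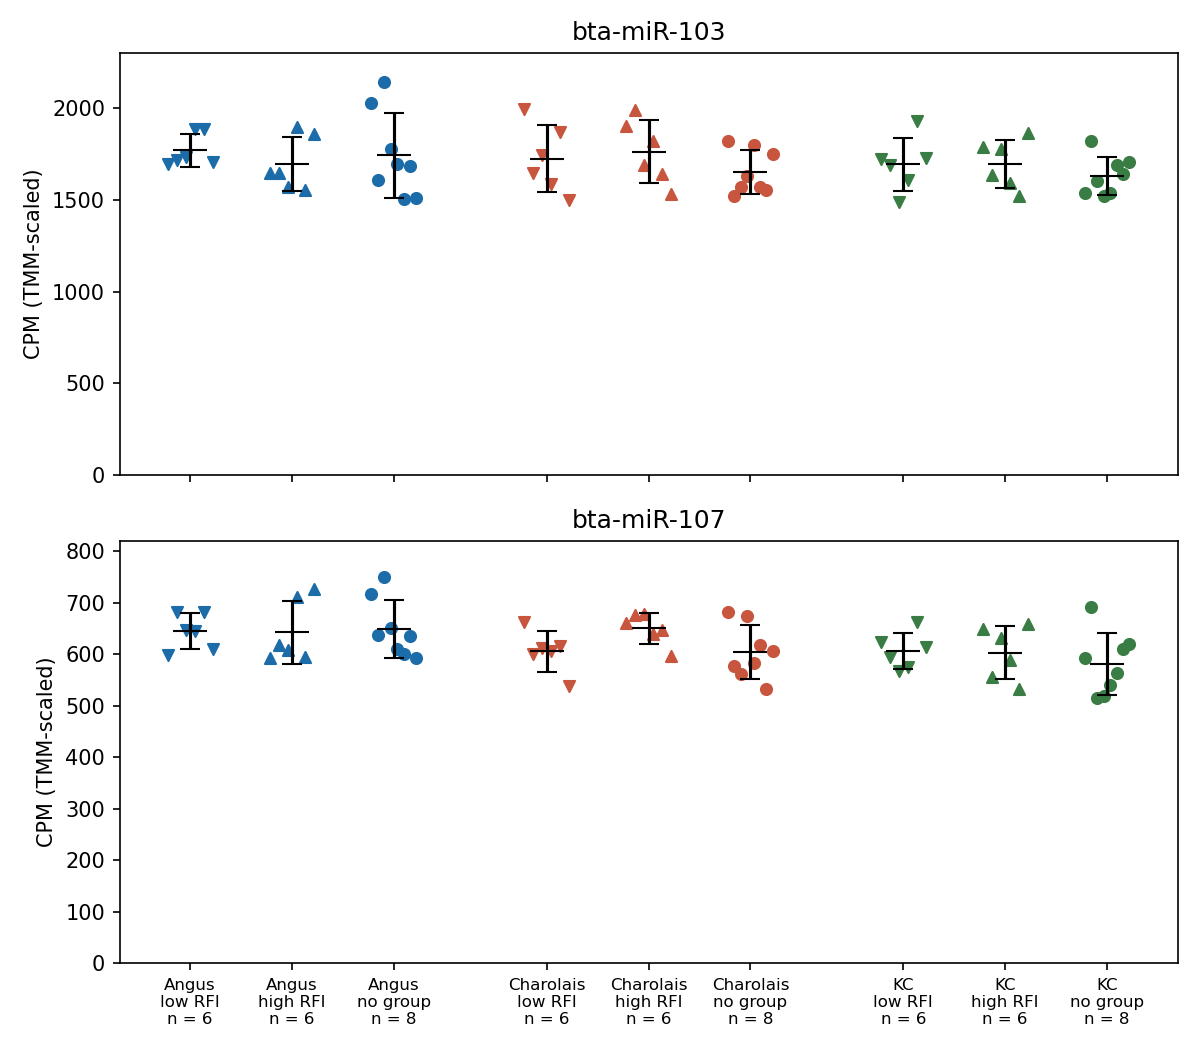
Level of bta-miR-103 (top) and bta-miR-107 (bottom) in CPM after TMM scaling, with 1 point per steer and the mean ± SD of each breed and RFI group as black bars. Points of the low-RFI and high-RFI groups overlap in every breed for both miRNAs.

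Low-RFI and high-RFI steers had overlapping levels of both miRNAs in every breed, and neither member passed a threshold in any comparison of RFI groups. In Angus, bta-miR-103 ran from 1695 to 1886 CPM in low-RFI steers with a median of 1724, and from 1555 to 1897 CPM in high-RFI steers with a median of 1646. All 6 low-RFI Angus steers lay inside the range of the high-RFI steers and above their median. bta-miR-107 ran from 599 to 683 CPM in low-RFI Angus (median 646) and from 593 to 727 CPM in high-RFI Angus (median 613). Again all 6 low-RFI values fell inside the high-RFI range.

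In Charolais, bta-miR-103 spanned 1501 to 1995 CPM in low-RFI steers (median 1696) and 1530 to 1987 CPM in high-RFI steers (median 1757). bta-miR-107 spanned 538 to 662 CPM in low-RFI Charolais (median 610) and 596 to 679 CPM in high-RFI Charolais (median 654). For bta-miR-107 only 1 of the 6 low-RFI Charolais steers exceeded the median of the high-RFI steers, although 5 of 6 lay inside their range. In KC, bta-miR-103 lay between 1490 and 1928 CPM in low-RFI steers (median 1707) and between 1520 and 1864 CPM in high-RFI steers (median 1707). bta-miR-107 lay between 567 and 663 CPM in low-RFI KC (median 604) and between 533 and 659 CPM in high-RFI KC (median 610). The KC groups thus covered nearly the same range for both miRNAs.

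Differences were estimated with edgeR's quasi-likelihood test over all miRNAs of a breed, with Benjamini-Hochberg adjustment over all miRNAs tested. A log2 fold change here is low-RFI relative to high-RFI, scaled within the 12 steers of the breed. For bta-miR-103 it was 0.09 ± 0.07 (SE) among Angus (edgeR adjusted p = 0.957), -0.02 ± 0.11 among Charolais (adjusted p = 0.986) and 0.03 ± 0.07 among KC steers (adjusted p = 0.994). For bta-miR-107 the values were 0.04 ± 0.08 among Angus (edgeR adjusted p = 0.957), -0.09 ± 0.09 among Charolais (adjusted p = 0.982) and 0.04 ± 0.07 among KC steers (adjusted p = 0.994). The levels above are scaled over all 60 steers, so their differences can depart slightly from these. None of these differences exceeded the spread between steers.

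The 95% intervals bound what could have been missed, for groups chosen in part on miRNA expression. For bta-miR-103 the interval of the percent change ran from -3.73 to 18.5 for Angus, from -15.5 to 15.1 for Charolais and from -7.99 to 13.2 for KC. For bta-miR-107 it ran from -7.98 to 14.7 for Angus, from -17.9 to 7.40 for Charolais and from -7.32 to 14.1 for KC. All 6 intervals included 0, and all stayed inside a 1.5-fold change in either direction, the size the study asked for together with an unadjusted p under 0.05. That rule was applied here to p from the quasi-likelihood test, while the study reports likelihood-ratio statistics. By that rule 0 of the 2 members were called in any breed, where over all miRNAs it called 2.68% of 373 among Angus, 2.41% of 373 among Charolais and 1.82% of 385 among KC steers. At an unadjusted p under 0.05 the numbers over all miRNAs were 15, 20 and 17, with neither member among them. An adjusted p under 0.05 was reached by 0 miRNAs in each breed with edgeR's quasi-likelihood test, and with DESeq2 by 0, 0 and 1 in the same order of breeds. Under other edgeR settings up to 5 passed among Charolais (sire as a block) and 1 among KC steers (likelihood-ratio test).

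Exact two-sided permutation tests on log2 CPM, over every relabeling of 6 against 6 steers, can go no lower than p = 0.00216. Their smallest p was that of bta-miR-107 in Charolais, 0.0584, for a mean 0.10 lower in low-RFI steers on the log2 scale (low minus high: -0.10 ± 0.05 SE, n = 6 and 6). With library totals in place of TMM scaling this difference was -0.0277 (exact permutation p = 0.710). The other 5 exact permutation tests had p from 0.290 to 0.983. With sire as a block, edgeR's Charolais estimates turned sign, to 0.13 for bta-miR-103 (adjusted p = 0.851) and 0.018 for bta-miR-107 (adjusted p = 0.986), and RFI groups were unevenly spread over the Charolais sires. Adding the 3 breeds in 1 fit of 36 steers narrowed the estimates without a call. bta-miR-103 then had a percent change of 0.329 (95% interval -5.71 to 6.76, edgeR adjusted p = 0.984) and bta-miR-107 one of -2.34 (-7.74 to 3.38, adjusted p = 0.957). edgeR's test of whether the RFI difference varied between breeds gave an adjusted p of 0.987 for each member.

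**Figure D2:**
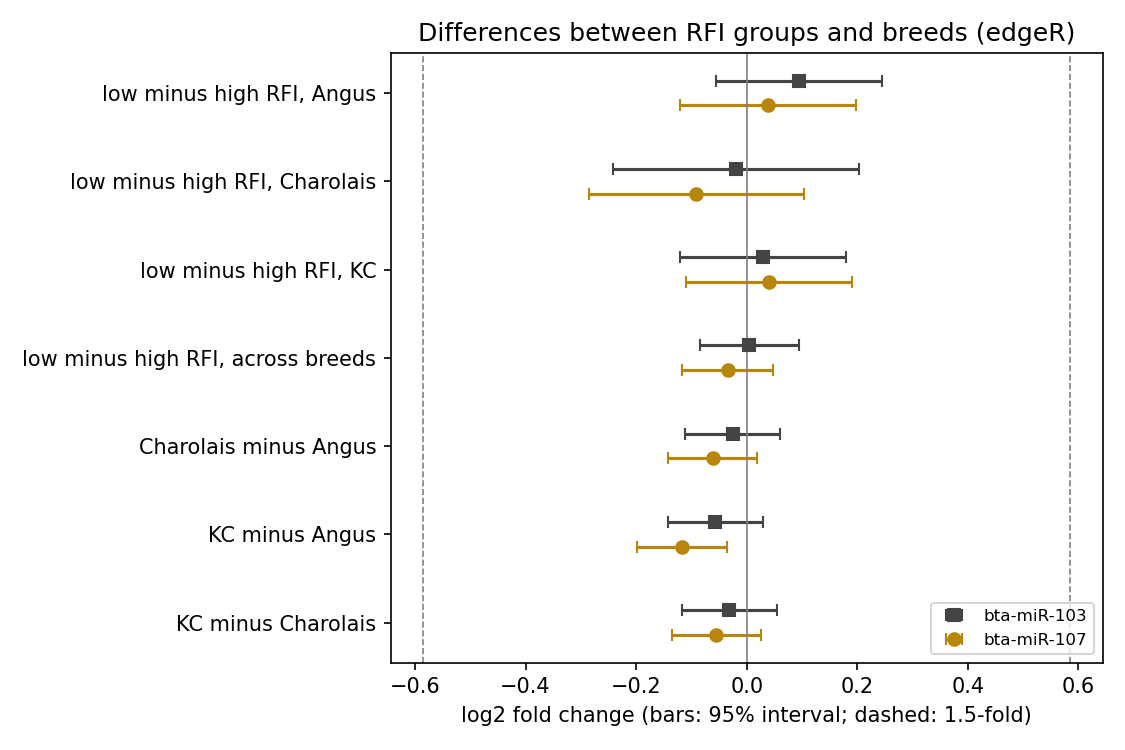
log2 fold change of bta-miR-103 (squares) and bta-miR-107 (circles) in each comparison of RFI groups or breeds, from edgeR, with 95% intervals as bars and a 1.5-fold change as dashed lines. The interval of bta-miR-107 for KC minus Angus is the only one that leaves out 0, and no interval reaches the dashed lines.

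Between breeds the mean of each miRNA was highest in Angus and lowest in KC, but only 1 of the 6 differences passed the test. For bta-miR-103 the order was not stable, since Charolais was above Angus on the 36 steers with an RFI group (log2 difference 0.0394) and KC above Charolais on the mean of each sire (0.0241). bta-miR-103 had 1737 ± 169 CPM in Angus (SD, n = 20, range 1507 to 2141, median 1701), 1707 ± 156 CPM in Charolais (n = 20, range 1501 to 1995, median 1670) and 1670 ± 123 CPM in KC (n = 20, range 1490 to 1928, median 1666). These ranges overlapped almost entirely, with 19 of 20 Charolais and 19 of 20 KC steers inside the Angus range. bta-miR-107 had 646 ± 49.8 CPM in Angus (SD, n = 20, range 592 to 749, median 636), 618 ± 46.2 CPM in Charolais (n = 20, range 532 to 682, median 614) and 595 ± 49.97 CPM in KC (n = 20, range 514 to 691, median 594). For bta-miR-107, 10 of the 20 KC steers lay inside the Angus range and the others below it, and 4 of 20 were above the Angus median.

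bta-miR-107 was lower in KC than in Angus, with a log2 fold change of -0.12 ± 0.04 (SE), a percent change of -7.79 (95% interval -12.8 to -2.50) and an edgeR adjusted p of 0.0459. Of the 443 miRNAs tested, 11.3% were called in this comparison at an adjusted p under 0.05, 4.29% as lower in KC and 7.0% as higher. By p-value bta-miR-107 stood at place 48 of the 50 called, close to the threshold. A two-sided permutation test of its log2 CPM over the same 40 steers (100000 resamples) gave p = 0.00247. The joint test of any difference between the 3 breeds, which called 18.1% of miRNAs, did not call it (edgeR adjusted p = 0.0741).

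The call was lost under several settings. It was lost with library totals in place of TMM scaling (edgeR adjusted p = 0.193), on the mean of each sire (0.235), on the 36 steers with an RFI group (0.257), with no filter (0.118) and by a likelihood-ratio test (0.0536). Leaving out 1 steer at a time, it was lost for 7 of the 60: Angus low-RFI 2, KC low-RFI 4, KC high-RFI 2 and 5, and KC steers 3, 4 and 6 without a group. The adjusted p then lay between 0.0510 and 0.0713, and the estimate stayed between -0.14 and -0.10 over all 60 fits. Without the 2 Angus and Charolais steers of low TMM factor, taken out singly, the adjusted p was 0.0259 and 0.0264. Thinned to equal depth of 1930856 counts, the log2 fold change was -0.16 (edgeR adjusted p = 0.00433).

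bta-miR-107 did not pass the test between Charolais and Angus (log2 fold change -0.06 ± 0.04, edgeR adjusted p = 0.410) or between KC and Charolais (-0.06 ± 0.04, adjusted p = 0.393). For bta-miR-103 the log2 fold change was -0.03 ± 0.04 for Charolais against Angus (edgeR adjusted p = 0.782), -0.06 ± 0.04 for KC against Angus (adjusted p = 0.434) and -0.03 ± 0.04 for KC against Charolais (adjusted p = 0.728). The interval of the KC against Angus difference of bta-miR-103 ran from -9.41% to 2.05% and included the estimate for bta-miR-107, and the direct comparison of the members is the ratio given further on. Over all miRNAs, 1.35% were called between Charolais and Angus (0.903% higher and 0.451% lower in Charolais) and 17.2% between KC and Charolais (9.71% higher and 7.45% lower in KC).

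Depth differed between breeds as well, and a few marker miRNAs were called. Over all 443 miRNAs tested, 11.3% were called between KC and Angus at an adjusted p under 0.05, 7.0% as higher in KC. Of the hepatocyte list 1 of 3 and of the leukocyte list 1 of 5 were higher in KC than in Angus, and 0 of 5 mesenchymal, 0 of 2 endothelial, 0 of 3 erythroid and 0 of 5 biliary epithelial miRNAs were called. Counts this small are not told apart from that background. Summed levels of the hepatocyte list ran from 173171 to 355839 CPM in Angus and from 200336 to 261710 CPM in KC. Those of the leukocyte list ran from 2880 to 4521 CPM in Angus and from 3020 to 5266 CPM in KC. Their part in the difference of bta-miR-107 was not tested. In whole liver, fewer cells that hold a miRNA and less of it per cell cannot be told apart.

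Because both members are counted in the same library, their ratio does not depend on the scaling. It can depend on reads that end at base 21 or before, which fit both members. Per the study, the kept reads were on average slightly longer in Angus than in Charolais and KC. The part of read length in the ratio, and in its differences between breeds, RFI groups or sires, was not tested. The count of bta-miR-107 divided by that of bta-miR-103 was 0.373 ± 0.0174 in Angus (SD, n = 20, range 0.342 to 0.398, median 0.374), 0.364 ± 0.0259 in Charolais (n = 20, range 0.324 to 0.413, median 0.358) and 0.356 ± 0.0165 in KC (n = 20, range 0.320 to 0.385, median 0.355). bta-miR-103 was the more abundant member in all 60 steers. Read counting alone would spread the ratio by 2.09% to 2.50%, and the observed coefficients of variation were 4.68%, 7.13% and 4.63%. The ranges overlapped, with 16 of 20 KC steers inside the Angus range and 3 of 20 KC steers above the Angus median.

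On the log2 scale the ratio was 0.06 lower in KC than in Angus (KC minus Angus: -0.06 ± 0.02 SE), with a permutation p of 0.00452 (two-sided, 100000 resamples, n = 20 and 20) and 0.0136 adjusted over the 3 pairs of breeds. For Charolais against Angus the percent difference was -2.54, which did not pass (permutation p = 0.184, adjusted 0.275), and KC and Charolais did not differ beyond their spread (p = 0.332 by permutation). No single steer decided the KC against Angus difference, whose adjusted permutation p was 0.00519 to 0.0290 when each of the 40 was left out. It was lost at equal depth (-0.0647, adjusted permutation p = 0.0761) and on the 36 steers with an RFI group (-0.0573, adjusted p = 0.0630), where the estimate stayed about as large, and on the mean of each of 11 KC and 7 Angus sires (-0.0492, adjusted p = 0.340), the KC steer of unknown sire standing for itself.

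Between RFI groups, the percent difference in the ratio (low relative to high) was -3.81 for Angus, -4.72 for Charolais and 0.904 for KC, and none of these passed. Exact permutation p was 0.141, 0.229 and 0.634, or 0.344, 0.344 and 0.634 adjusted over the 3 breeds. In Angus the ratio was 0.342 to 0.398 in low-RFI steers (median 0.360) and 0.361 to 0.391 in high-RFI steers (median 0.379), so that all 6 high-RFI values lay inside the low-RFI range. The highest low-RFI steer (Angus low-RFI 2) also set the test: without it the adjusted exact permutation p was 0.0390, for a difference of -0.08 on the log2 scale. In Charolais the ratio was 0.329 to 0.382 in low-RFI steers (median 0.355) and 0.341 to 0.401 in high-RFI steers (median 0.370), and in KC 0.344 to 0.381 (median 0.357) and 0.340 to 0.370 (median 0.354).

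**Figure D3:**
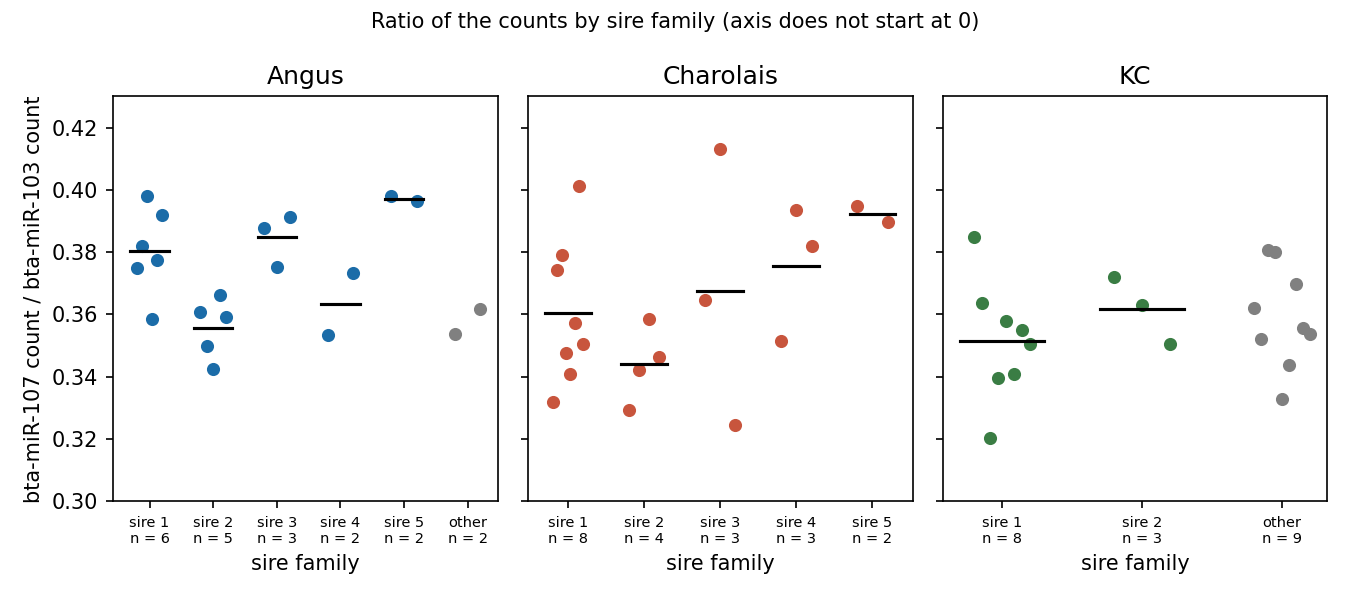
Ratio of the bta-miR-107 count to the bta-miR-103 count in each steer, by labelled sire for sires with at least 2 steers, with the family mean as a line. Steers of other or unknown sires are in grey. In Angus the family means run from 0.356 to 0.397, and the vertical axis starts at 0.30.

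Half-sib families differed in the ratio in Angus. Over 18 steers of 5 Angus sires, 68.2% of the variation in the log2 ratio lay between sires (F = 6.96, one-sided permutation p = 0.00318 with 100000 resamples, 0.00954 adjusted over the 3 breeds). With few steers per sire such shares, here and below, lie above 0 even where sires do not differ. Only the permutation p tests them. The largest Angus family had a ratio of 0.381 ± 0.0139 (SD, n = 6) and the next 0.356 ± 0.00940 (n = 5). Of the smaller families, 3 half-sibs had 0.385 ± 0.00837, 2 had 0.363 ± 0.0142 and 2 had 0.397 ± 0.00106. All 3 steers of the third family were high-RFI and both of the fourth low-RFI, so sire and RFI group were not balanced in Angus. In Charolais they were not balanced either, the largest family holding 1 low-RFI and 4 high-RFI steers. With only sires of at least 3 steers, F was 8.63 (permutation p = 0.00651). The test of the ratio was chosen after the data were seen.

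The same test did not pass in Charolais (20 steers of 5 sires, 29.2% of the variation, permutation p = 0.241) or KC (11 steers of 2 sires, 7.94%, permutation p = 0.399). It did not pass for the level of either member in any breed. For bta-miR-103, sires held 38.7% of the variation among Angus (permutation p = 0.142), 22.5% among Charolais (p = 0.398) and 0.0147% among KC steers (p = 1). For bta-miR-107 they held 33.7% among Angus (permutation p = 0.201), 32.3% among Charolais (p = 0.182) and 2.56% among KC steers (p = 0.642). Whether the Angus families differ more than those of the other breeds was not tested.

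**Figure D4:**
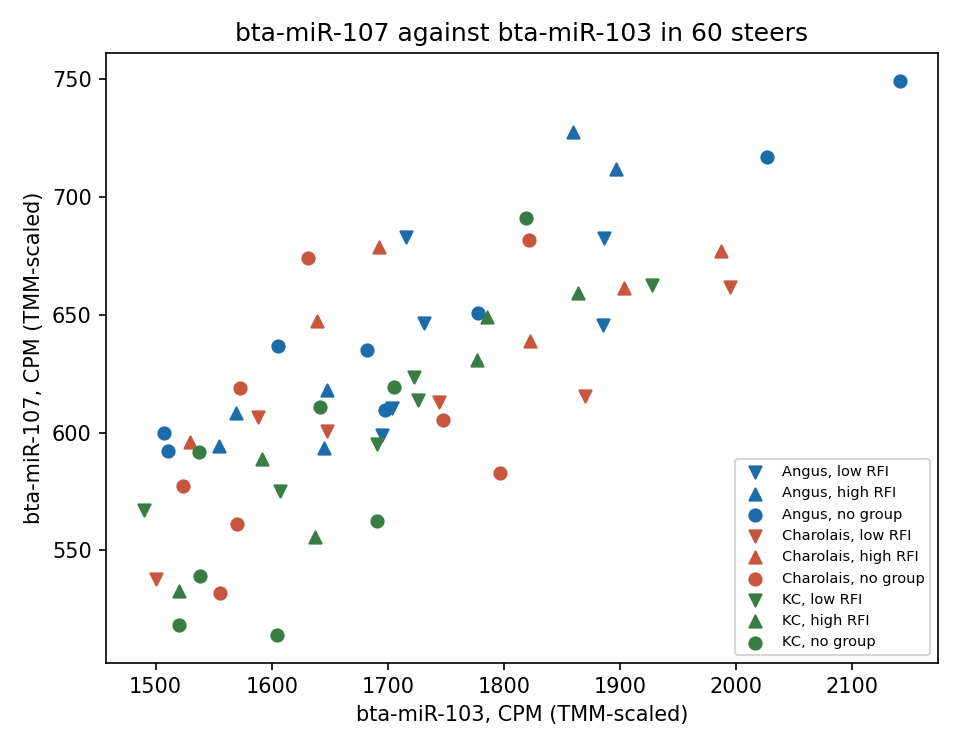
Level of bta-miR-107 against bta-miR-103 in CPM after TMM scaling in 60 steers, coloured by breed and marked by RFI group. The 2 levels rise together in each breed, and the Angus steer without an RFI group at 2141 and 749 CPM is the highest for both. This is the library with a TMM factor of 0.671.

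Within each breed the levels of the 2 members rose and fell together. The steer highest for both, Angus steer 3 without an RFI group, had the lowest share of counts of all Angus steers for both (0.144% and 0.0503%), so its place rests on its scaling factor. Over 20 steers, Pearson's r of log2 CPM was 0.873 in Angus (permutation p = 1e-05, the smallest 100000 resamples can give; Spearman's rho 0.866, p = 1e-05). It was 0.646 in Charolais (permutation p = 0.00253; rho 0.660, p = 0.00193) and 0.834 in KC (permutation p = 2e-05; rho 0.860, p = 2e-05). Adjusted over the 3 breeds, the p-values of r were 3e-05, 0.00253 and 3e-05. Without the 2 steers farthest from the median of bta-miR-103, r was 0.794, 0.571 and 0.796. Scaled by library totals alone, r was 0.904, 0.889 and 0.868. Both levels of a steer share 1 scaling factor and may share short reads, and the part of either in r was not tested.

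A relation of the ratio with depth did not pass in any breed after adjustment. Pearson's r of the log2 ratio with the log2 total was 0.517 over 20 Charolais steers (permutation p = 0.0182, adjusted over the 3 breeds 0.0547; rho 0.460, p = 0.0420), and 0.247 without the 2 steers farthest from the median total, so it rests on those. The level of bta-miR-103 against depth in Charolais had r = -0.510 (permutation p = 0.0203, adjusted 0.0610; rho -0.445, p = 0.0499), and -0.329 without 2 steers. For the ratio r was 0.0594 in Angus (permutation p = 0.804; rho 0.0466, p = 0.847; 0.115 without 2 steers) and 0.391 in KC (permutation p = 0.0882; rho 0.272, p = 0.246; 0.137 without 2 steers).

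The miRNAs that share AGCAGC with the members are the miR-15 and miR-16 family, known for restraining the cell cycle and promoting cell death through targets such as BCL2. Of the 8 fixed in this list, 7 passed the filter and bta-miR-503-5p did not, with 0 reads in 44 of 60 steers. bta-miR-16a was the most abundant at 685 ± 81.0 CPM (SD, n = 60), about the level of bta-miR-107, followed by bta-miR-16b at 565 ± 58.3, bta-miR-15a at 329 ± 34.8 and bta-miR-195 at 239 ± 39.9 CPM. bta-miR-497 had 106.6 ± 17.0 CPM, bta-miR-15b 20.7 ± 3.81 CPM and bta-miR-424-5p 16.4 ± 8.75 CPM. The 7 together summed to between 1445 and 2249 CPM per steer, and the 3 breeds had medians of 1970, 1971 and 1956 CPM. bta-miR-16a and bta-miR-16b differ only near their 3′ ends, so reads could be split between them.

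**Figure D5:**
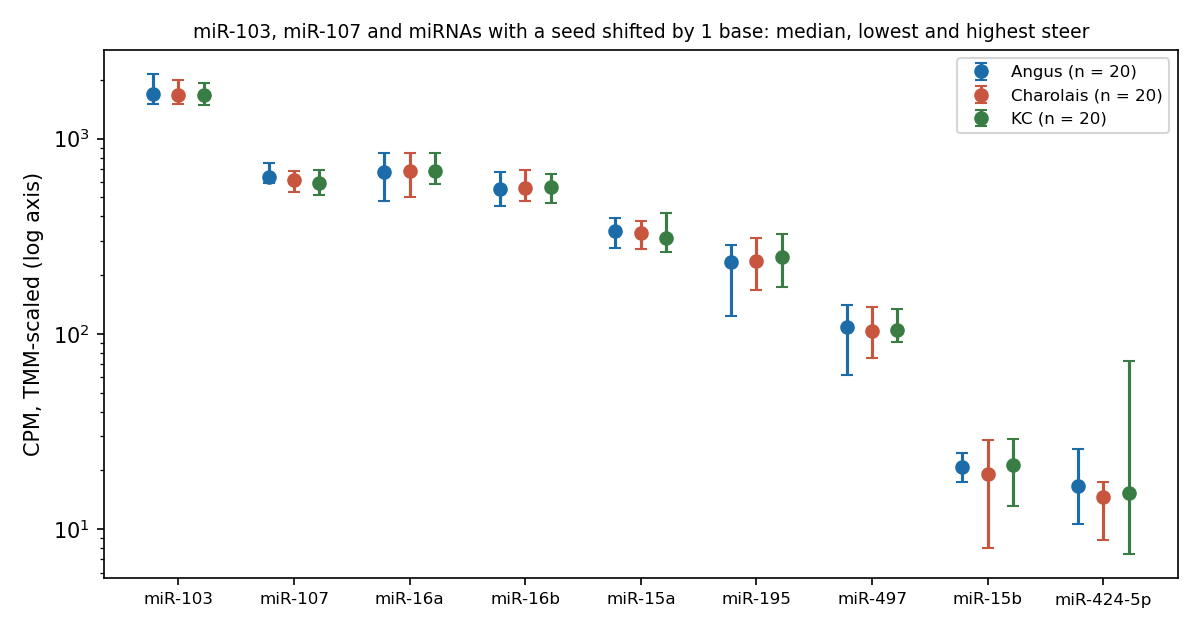
Level of bta-miR-103, bta-miR-107 and the 7 detected miRNAs that hold AGCAGC at base 2, in CPM after TMM scaling on a log axis, with the median (point) and the lowest and highest steer (bars) of 20 steers per breed. bta-miR-103 is the highest of the 9 in every breed, and the breeds overlap for each miRNA.

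By the study's cutoffs, applied to the quasi-likelihood p, none of these 7 miRNAs was called here between RFI groups. Over all miRNAs these cutoffs called 2.68% among Angus, 2.41% among Charolais and 1.82% among KC steers. The study itself called bta-miR-424-5p as higher in low-RFI KC steers, also at its stricter threshold corrected for multiple tests. Its qPCR on the same RNA went in the same direction, with a p-value the study calls suggestive. Here the log2 fold change of bta-miR-424-5p was 0.76 ± 0.46, with an unadjusted edgeR p of 0.121 (adjusted p = 0.905). The low-RFI KC steers had a median of 20.3 and a highest of 73.1 CPM, the high-RFI ones 14.6 and 35.1 CPM. The highest steer also enters the breed comparisons, and its part in these estimates was not tested. Between breeds none of the 7 was called at an adjusted p under 0.05 in edgeR. Over all miRNAs, an unadjusted p under 0.05 was reached by 15 of 373 between RFI groups in Angus and 15 of 426 across breeds. Between KC and Charolais 124 of 443 reached it. Of the 7, edgeR had 1 in Angus, bta-miR-195 (log2 fold change -0.22 ± 0.10, adjusted p = 0.957), 1 between RFI groups across breeds, bta-miR-15b (0.19 ± 0.08, adjusted p = 0.830), and 1 between KC and Charolais, bta-miR-424-5p (0.42 ± 0.18, adjusted p = 0.0879). Low minus high RFI, their median log2 fold change was 0.07 for Angus, 0.06 for Charolais and 0.10 for KC steers, where the median over all miRNAs tested was 0.01, -0.003 and 0.03. For KC minus Angus it was 0.04 against 0.008 over all miRNAs, whereas both members had values below 0 there.

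Of 31 miRNAs described in mammals as acting on insulin signalling or glucose metabolism, 30 were in the files and all 30 were tested. Between RFI groups the study's rule called 0 of 30 among Angus, 0 among Charolais and 1 among KC steers, where its shares over all miRNAs were 2.68%, 2.41% and 1.82%. A count of 1 in 30 is close to that background. The 1 called was bta-miR-223, a miRNA of myeloid cells, with 33.3 to 58.9 CPM in low-RFI KC (median 37.8) and 13.2 to 35.3 CPM in high-RFI KC (median 28.3). The study also called bta-miR-223 as higher in low-RFI KC steers, and did so at its stricter threshold corrected for multiple tests. Its qPCR of this miRNA went in the same direction, with a p-value the study calls suggestive, and correlated with the sequencing. Here the log2 fold change of bta-miR-223 was 0.67 ± 0.20 (edgeR adjusted p = 0.565). In KC the 5 leukocyte miRNAs, of which it is 1, summed to 3741 to 5266 CPM in low-RFI steers and 3625 to 4092 CPM in high-RFI steers, so the sums overlapped. At an unadjusted p under 0.05, 3 of these 5 were higher in low-RFI KC steers, where 17 of all 385 miRNAs passed in either direction. None of the 5 passed an adjusted p of 0.05 in edgeR. Their median log2 fold change was 0.26, against 0.03 over all miRNAs. The part of leukocytes in the difference of bta-miR-223 was not tested.

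The other list miRNAs with the smallest p between RFI groups did not pass an adjusted p of 0.05. In Angus they were bta-miR-143, a miRNA of smooth muscle and fibroblasts (log2 fold change -0.17 ± 0.08), the p53-induced bta-miR-34a (0.41 ± 0.22) and bta-miR-320a (0.13 ± 0.07), all with an edgeR adjusted p of 0.957. In Charolais they were the hepatocyte miRNA bta-miR-122 (0.32 ± 0.13, edgeR adjusted p = 0.726), bta-miR-33a, which lies within the sterol regulator SREBF2 in mammals (-0.41 ± 0.21, adjusted p = 0.857), and bta-miR-152 (-0.16 ± 0.12, adjusted p = 0.973). In KC bta-miR-33b (0.29 ± 0.12) and bta-miR-181a (0.18 ± 0.10) followed, both with an edgeR adjusted p of 0.905. Low relative to high RFI, the median log2 fold change of the 30 was 0.02 for Angus, -0.04 for Charolais and -0.02 for KC steers.

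Between breeds, edgeR's joint test called 9 of the 30 at an adjusted p under 0.05, where it called 18.1% of all miRNAs. In KC against Angus 1 was higher and 5 lower, where 7.0% of all miRNAs were called as higher and 4.29% as lower. In KC against Charolais 0 were higher and 6 lower (9.71% and 7.45% of all miRNAs). In Charolais against Angus 1 was higher and 0 lower (0.903% and 0.451% of all miRNAs). bta-miR-152 had the smallest p, with 172 ± 27.0 CPM among Angus, 236 ± 43.0 CPM among Charolais and 214 ± 31.4 CPM among KC steers (SD, n = 20 per breed). Its log2 fold change was 0.46 ± 0.08 for Charolais against Angus (edgeR adjusted p = 3.46e-05) and 0.31 ± 0.07 for KC against Angus (adjusted p = 0.00232).

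The next 4 belonged to the let-7 family, which in mice restrains the insulin signalling pathway, and whose members differ by few bases and may share reads. bta-let-7f fell from 28607 ± 4250 CPM in Angus to 22881 ± 2513 CPM in KC (SD, n = 20 per breed), with a log2 fold change of -0.32 ± 0.06 (edgeR adjusted p = 6.48e-06). bta-let-7e was lower in KC than in Angus (-0.17 ± 0.05, edgeR adjusted p = 0.0153) and than in Charolais (-0.24 ± 0.05, adjusted p = 0.000189). bta-let-7c and bta-let-7i were lower in KC than in Charolais (log2 fold changes -0.23 ± 0.05 and -0.25 ± 0.06, edgeR adjusted p = 0.00160 and 0.00250). Against Angus these 2 had -0.14 ± 0.05 and -0.14 ± 0.06, which did not pass (edgeR adjusted p = 0.0745 and 0.127).

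Across the 60 steers, after removal of the breed means, the 2 members were more like each other than like any other miRNA (Pearson's r = 0.774, Spearman's rho = 0.785). This and the following correlations describe 441 other miRNAs over 60 steers that share library, depth and scaling factor within a steer, and no test was made. For bta-miR-103 the next were bta-miR-2284x (r = 0.630), bta-let-7f (0.570), bta-miR-2284y (0.569), bta-let-7a-5p (0.567) and bta-miR-378 (0.556), which lies within the mitochondrial regulator PPARGC1B in mammals. For bta-miR-107 they were bta-miR-93 (r = 0.656), a member of the miR-17 family, then bta-miR-2284y (0.519), bta-miR-2284x (0.518), bta-let-7f (0.518) and bta-miR-11984 (0.504). The mean level of bta-miR-11984 was 0.573 CPM, close to the level of 3 reads in the deepest library, 0.444 CPM. The first place of the pair did not hold in Charolais alone, where the members had r = 0.646 with each other. There bta-miR-107 had 0.792 with bta-miR-93, and bta-miR-103 had 0.711 with bta-let-7a-5p. In Angus and KC the members had r = 0.873 and 0.834.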

How the data were processed

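Each steer gave 1 small RNA library from liver. The authors trimmed its reads with cutadapt 1.16, kept lengths of 15 to 28 bases, removed other small RNAs, and quantified known bovine miRNAs with miRDeep2 (Bowtie 1.1.1, build UMD3.1). The deposited values are raw read counts per pair of mature miRNA and precursor, without normalization. Here counts were averaged over precursors and rounded, and edgeR 4.0.16 (R 4.3.3, TMM, quasi-likelihood F test) was run on miRNAs that reached 1 CPM in 6 or more steers. Breed was a covariate in the fit of 36 steers. DESeq2 1.42.0 served as an alternative. Permutation tests used scaled log2 CPM (prior count 0.5) or the log2 ratio (0.5 added to each count), in Python 3.11.15 with numpy 2.4.6. Groups follow the labels, and steers without an RFI group entered breed comparisons only. Named miRNAs are the members, the detected miRNAs sharing AGCAGC, the smallest p-values of the insulin list (3 per breed for RFI, 5 between breeds) and the 5 miRNAs most like each member. The members and lists were chosen with earlier results of these data known. The sire test of the ratio, its thinned, 36-steer and sire-mean settings and the older quasi-likelihood form were chosen after seeing the data. The procedure was tested on simulated data. Steers are separate animals, and sequencing pools are not mapped to steers in the sources used here.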

Additional observations from a re-analysis of the deposited data

How the results depend on the processing

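Of 258 values recomputed under other settings, 232 kept their direction and their side of the threshold, and of 588 recomputed without 1 steer, 551 did. These counts include many values that passed no test. The KC minus Angus call of bta-miR-107 was kept in 8 of 13 other settings, and that of the log2 ratio in 1 of 4. Values that turned sign passed no test in either form, and the cause was not tested. For bta-miR-103 the Charolais RFI difference (log2, low minus high) became 0.0519 with library totals alone (0.0421 as a difference in mean log2 CPM), 0.0056 with precursors summed and 0.13 with sire as a block, and for KC -0.022 at equal depth, -0.0646 with sire as a block, -0.004 with 36 steers in 1 fit and 0.0565 in mean log2 CPM with library totals alone. For bta-miR-107 it became 0.018 for Charolais and -0.0451 for KC with sire as a block, and 0.0316 across breeds with library totals alone. bta-miR-103 became 0.0394 on 36 steers for Charolais minus Angus, and 0.0241 on the mean of each sire for KC minus Charolais. At equal depth the Charolais minus Angus difference of bta-miR-103 was 0 after rounding, which is counted above as not kept.

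The lower bta-miR-107 of KC against Angus lost its call at -0.1168 by the likelihood-ratio test, -0.1177 with library totals alone, -0.1198 with no filter, -0.1068 on 36 steers and -0.1049 on the mean of each sire. At equal depth its KC minus Charolais difference gained a call at -0.1377 (edgeR adjusted p = 0.0113), and the joint breed test of bta-miR-107 gained one with RLE normalization (edgeR adjusted p = 0.0235), at least 10 counts in every steer (0.0217) and equal depth (0.005). The KC minus Angus log2 ratio lost its call at -0.0647 at equal depth, -0.0573 on 36 steers and -0.0492 on the mean of each sire.

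Leaving out 1 steer at a time, the RFI difference of bta-miR-103 ran from 0.0415 to 0.1294 for Angus, from -0.0649 to 0.0223 for Charolais and from -0.0197 to 0.0475 for KC, and that of bta-miR-107 from -0.0124 to 0.0747 for Angus, from -0.1149 to -0.052 for Charolais and from -0.0055 to 0.0577 for KC. Charolais minus Angus of bta-miR-103 ran from -0.0332 to 0.0135. For bta-miR-107, KC minus Angus ran from -0.1352 to -0.1046 and KC minus Charolais from -0.1056 to -0.0453, with a call gained without Charolais low-RFI steer 6 or Charolais steer 2 without a group. The RFI difference of the log2 ratio ran from -0.0816 to -0.0383 for Angus and from -0.0044 to 0.025 for KC. Replicate numbers were given in accession order, so they pair no steers.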
